A study of Mus musculus with 6 samples.

Results

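Glucose is released by the liver from 2 sources, newly made glucose and stored glycogen, and 10 genes of these routes were followed in the livers of mice on a regular diet (RD) and of mice on a high-cholesterol diet (HCD). The 10 genes were chosen by name for their place in the pathways, out of 20673 genes in the deposited tables. Of these, 5 belong to gluconeogenesis (Pck1, G6pc, Fbp1, Pcx and Slc37a4), 3 encode enzymes of glycogen turnover (Gys2, Pygl and Ugp2), and 2 encode subunits that bring a phosphatase to glycogen (Ppp1r3b and Ppp1r3c). All 10 were found once each, and all 10 passed the filter on low counts that 13105 genes passed. None of the 10 differed between the diets at an adjusted p under 0.05 in the edgeR quasi-likelihood test, a threshold that 3.27% of all genes tested passed.

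The mice were C57BL/6J animals, about 3 months old, from a study of diet before sepsis that used both sexes. The HCD group ate a chow with added cholesterol, cocoa butter and sodium cholate for 3 days, and the RD group ate standard chow and is labelled as untreated. Livers were taken before any sepsis, and RNA from each liver made 1 library, with 3 livers per diet. The HCD differs from RD in fat and bile salt as well as in cholesterol, so the 3 components cannot be told apart. Both diets were given ad libitum and no fast is described, and the sources used here do not give the hour of collection. Food intake was monitored and not matched, and the study describes it as somewhat lower with HCD, so that the amount eaten and the kind of diet cannot be told apart.

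Gluconeogenesis runs from pyruvate, lactate, glycerol and amino acids to glucose. Its committed steps are catalysed by enzymes that glycolysis does not use, and 2 of their genes, Pck1 and G6pc, are known as the classical targets of glucagon and glucocorticoids in the fasted liver, with insulin acting against them. Glycogen is built from UDP-glucose after a meal and broken down to glucose 1-phosphate between meals, and both arms are set largely by phosphorylation of the enzymes, which RNA levels do not show.

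Depth was 13771630 to 23129576 counts per library with RD and 13935491 to 18545549 with HCD. Levels are given in CPM, read counts per 1000000 counts of the TMM-scaled library, where TMM is a factor that sets the bulk of genes equal between libraries. A single liver's 3 counts, the limit that a count of 0 allows, correspond to 0.13 to 0.218 CPM, far below every member's level. Liver identity was checked with markers: 4 of 5 hepatocyte markers were found under the symbol searched and summed to 81100 to 112000 CPM with RD and 89100 to 128000 with HCD. The other, transferrin, was searched as Tf, while the data hold it as Trf, so it was left out of the sum. Kupffer cell markers, 5 of 5 measured, all had log2 fold changes above 0 and summed to 88.9 to 157 CPM with RD and 127 to 295 with HCD. None was called by edgeR after adjustment, and 3 of 5 had an unadjusted p of 0.05 or less upward, beside 11.1% of all genes tested. Sinusoidal markers summed to 72.8 to 129 and 92.3 to 149 CPM, stellate markers to 170 to 173 and 172 to 301, and cholangiocyte markers to 10.6 to 21 and 15.2 to 25.6. Log2 fold changes were above 0 for 4 of 5 sinusoidal, 5 of 5 stellate and 3 of 4 cholangiocyte markers. Leukocyte markers summed to 4.42 to 10.1 and 4.21 to 12.9 CPM, the 2 adipocyte markers in the tables stayed at or below 0.192, and none of 4 skeletal muscle markers was in the tables. Periportal hepatocyte markers summed to 1990 to 3040 CPM with RD and 1740 to 2730 with HCD, and pericentral markers to 5390 to 9650 and 6920 to 7650. The part of these cell shares in the values of the glucose genes was not tested, and in whole liver fewer cells of a type and less RNA per cell cannot be told apart. HCD replicate 1 held 5032 Xist counts and 0 counts summed over 4 Y-linked genes, whereas the other 5 livers held 0 Xist counts and 1075 to 2666 Y-linked counts. That is the pattern of a female in HCD replicate 1 and of males in the other 5, though the labels give no sex. Sex was thus not balanced between the diets, and for that liver sex and diet cannot be told apart. Values without HCD replicate 1 are given beside the members whose difference it moved most.

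Promoter sequences are shown for the 4 members whose values differed most between livers or diets. Each runs 5′ to 3′ on the strand of the gene, from 250 bases before a RefSeq start site to 50 bases from it on, in GRCm38.p6, which is an older build than the GRCm39 named in the submitters' processing notes. Capitals mark the core TGACG of the cyclic AMP response element (read as CGTCA where it lies on the other strand) and the TATA box TATAAA.

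Pck1, chr2:173152823-173153122, plus strand: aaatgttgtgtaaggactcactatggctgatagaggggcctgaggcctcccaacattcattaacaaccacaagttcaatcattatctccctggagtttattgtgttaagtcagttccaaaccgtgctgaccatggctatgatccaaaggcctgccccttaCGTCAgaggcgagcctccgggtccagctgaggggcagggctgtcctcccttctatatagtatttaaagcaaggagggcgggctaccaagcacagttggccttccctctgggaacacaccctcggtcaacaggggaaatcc
G6pc, chr11:101367466-101367765, plus strand: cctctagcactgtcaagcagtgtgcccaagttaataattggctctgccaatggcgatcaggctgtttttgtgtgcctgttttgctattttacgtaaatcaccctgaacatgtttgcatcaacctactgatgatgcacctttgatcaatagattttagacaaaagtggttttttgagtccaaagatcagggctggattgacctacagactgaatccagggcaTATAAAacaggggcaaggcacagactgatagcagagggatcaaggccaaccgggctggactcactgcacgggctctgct
Ugp2, upstream start, chr11:21371218-21371517, minus strand: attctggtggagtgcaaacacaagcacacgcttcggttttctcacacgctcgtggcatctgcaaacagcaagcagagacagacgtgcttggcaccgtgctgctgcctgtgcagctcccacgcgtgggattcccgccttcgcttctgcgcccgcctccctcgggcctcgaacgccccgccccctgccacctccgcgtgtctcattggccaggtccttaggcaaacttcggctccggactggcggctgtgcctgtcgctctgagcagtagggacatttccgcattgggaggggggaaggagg
Ppp1r3c, chr19:36736555-36736854, minus strand: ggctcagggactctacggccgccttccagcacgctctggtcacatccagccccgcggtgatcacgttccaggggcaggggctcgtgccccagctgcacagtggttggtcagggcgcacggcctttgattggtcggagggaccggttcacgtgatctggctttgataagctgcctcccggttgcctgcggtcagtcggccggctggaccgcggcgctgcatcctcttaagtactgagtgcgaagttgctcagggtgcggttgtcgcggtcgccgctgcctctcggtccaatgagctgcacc

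Windows of this kind were at hand for 8 of the 10 members, 12 windows in all, with Gys2 and Ppp1r3b not among them. The core TGACG, searched on both strands, lay in the windows of Pck1 (on the minus strand, from −90 to −86 relative to the start site), Pygl (minus strand, −44 to −40) and Slc37a4, and in 20.8% of all 32851 windows. TATAAA lay in those of G6pc (−29 to −24) and Slc37a4, and in 13.6% of all windows. The full element TGACGTCA, which contains the core, and TGTTTAC, a FoxO and FoxA type motif, were in none of the 12 windows, against 1.79% and 3.65% of all. Only these exact strings were searched, so variants of the motifs were not counted, and the matches describe the letters in these windows only.

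Pck1 encodes cytosolic phosphoenolpyruvate carboxykinase, which turns oxaloacetate into phosphoenolpyruvate. Its level was 503, 1620 and 3640 CPM in the 3 RD livers and 1940, 1550 and 3180 CPM in the 3 HCD livers. The RD livers held both the lowest and the highest value of all 6, so that the HCD values lay inside the RD range. The means were 1920 ± 1590 CPM with RD and 2220 ± 848 with HCD (SD, n = 3 each). The difference of HCD from RD was 0.21 on the log2 scale, with a standard error of 0.59, an adjusted p of 0.870 in the edgeR test and a 95% interval from −1.14 to 1.56. That interval reaches from 0.453 times to 2.96 times the RD level, so that neither a fall nor a rise of that size was excluded at this spread. Without RD replicate 1 the log2 fold change was −0.25, and without RD replicate 3 it was 1.06, with adjusted p of 0.826 and 0.312 by the same test.

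G6pc encodes the catalytic subunit of glucose-6-phosphatase, the enzyme of the endoplasmic reticulum that frees glucose for export. The 3 RD livers held 42.4, 334 and 436 CPM and the 3 HCD livers 687, 434 and 471 CPM. RD replicate 1 stood far below the other 5 livers, HCD replicate 1 was the highest, and the groups overlapped only between RD replicate 3 and HCD replicate 2. Means were 271 ± 204 CPM with RD and 531 ± 137 with HCD (SD, n = 3 each). The difference was 0.97 on the log2 scale with a standard error of 0.65, an adjusted p of 0.432 (edgeR) and a 95% interval from −0.52 to 2.46, and the exact permutation test gave p = 0.2, where 0.1 is the smallest that 3 against 3 livers allow. Leaving out RD replicate 1 brought the difference down to 0.46, leaving out RD replicate 3 brought it up to 1.50, and leaving out HCD replicate 1 gave 0.74, with adjusted p of 0.470, 0.317 and 0.607.

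The remaining gluconeogenic members varied less. Fbp1, fructose-1,6-bisphosphatase, was at 690, 738 and 981 CPM with RD and 938, 644 and 796 with HCD. Its log2 fold change was −0.019 (SE 0.21, 95% interval −0.49 to 0.45, adjusted p = 0.968, edgeR), and −0.16 without HCD replicate 1. Pcx, the mitochondrial pyruvate carboxylase that opens the route from pyruvate, was at 504, 462 and 401 CPM with RD and 522, 430 and 500 with HCD. The 2 diets overlapped for both genes, and for Pcx the interval of the log2 fold change, −0.27 to 0.45 around 0.086, covers 0.827 to 1.36 times the RD level (adjusted p = 0.793, edgeR). Slc37a4 encodes the transporter that carries glucose 6-phosphate into the endoplasmic reticulum to G6pc. Its level was 203, 176 and 101 CPM with RD and 177, 136 and 218 with HCD, with RD replicate 3 the lowest liver. The log2 fold change was 0.14 (SE 0.27, interval −0.47 to 0.76, adjusted p = 0.803, edgeR). Leaving out RD replicate 3 turned it to −0.10, leaving out HCD replicate 3 to −0.05, and leaving out RD replicate 1 raised it to 0.35.

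**Figure D1:**
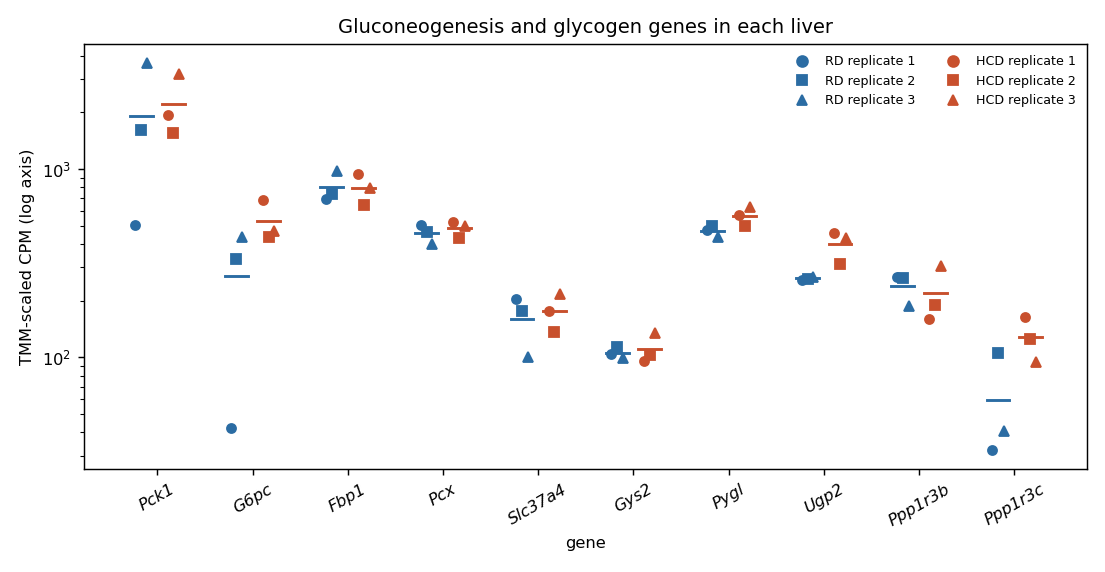
Level of each of the 10 genes in each liver, in TMM-scaled CPM on a log axis, with blue points for the 3 RD livers, orange points for the 3 HCD livers, a marker shape for each replicate number and a line at each diet's mean. RD replicate 1 lies far below the other livers for G6pc (42.4 CPM) and Pck1 (503 CPM), and only Pygl and Ugp2 have all 3 HCD livers above all 3 RD livers.

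Among the glycogen enzymes, Ugp2 had the clearest separation. It encodes UDP-glucose pyrophosphorylase, which makes UDP-glucose, the glucose donor for glycogen and for glucuronides. The RD livers lay close together at 258, 262 and 267 CPM, and the HCD livers were at 460, 312 and 429 CPM. All 3 HCD livers were above all 3 RD livers, which gives p = 0.1 in the exact permutation test, the smallest it allows. Means were 262 ± 4.61 and 400 ± 78.1 CPM (SD, n = 3 each). The log2 fold change was 0.61 with a standard error of 0.17 and an interval from 0.22 to 1.00, or 1.16 to 2.01 times the RD level. Its p was 0.00696 unadjusted and 0.0979 after adjustment over 13105 genes (edgeR), so Ugp2 did not pass. DESeq2 gave the same log2 fold change with an adjusted p of 0.0138, and called 1 of 10 members where it called 8.54% of the genes it tested. Without HCD replicate 1 the edgeR log2 fold change was 0.50 with an adjusted p of 0.148, and without HCD replicate 2 it was 0.75 with an adjusted p of 0.0456. Of the 3069 exon bases of Ugp2 in GENCODE M21, 78 also belong to Gm12043 on the opposite strand, and the sources used here do not say whether reads were counted by strand.

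Pygl encodes liver glycogen phosphorylase, which releases glucose 1-phosphate from glycogen. Its level was 476, 496 and 437 CPM with RD and 569, 500 and 625 with HCD, with HCD replicate 2 just above RD replicate 2. Pygl is thus the other member without overlap (exact p = 0.1), which makes 2 of 10, beside 14.0% of all genes tested with the 3 HCD livers on top. Its log2 fold change was 0.27 (SE 0.15, interval −0.08 to 0.61, adjusted p = 0.356, edgeR). Gys2, the liver glycogen synthase that adds glucose to the growing chain, was at 104, 114 and 98.9 CPM with RD and 96, 103 and 134 with HCD. The lowest and the highest liver were both HCD livers. The log2 fold change was 0.075 (SE 0.16, interval −0.28 to 0.43, adjusted p = 0.821, edgeR).

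Ppp1r3b and Ppp1r3c both encode subunits that tether protein phosphatase 1 to glycogen, where it activates the synthase. Ppp1r3c was at 32.3, 105 and 40.5 CPM with RD and 163, 125 and 94.7 with HCD. RD replicate 2 lay within the HCD values, and the other 2 RD livers were the lowest of the 6. Means were 59.3 ± 39.9 and 128 ± 34.4 CPM (SD, n = 3 each), and the log2 fold change, 1.11 with a standard error of 0.42, is the largest among the 10 members in this fit. Its interval ran from 0.15 to 2.06, with p = 0.0278 unadjusted and 0.183 adjusted (edgeR), and the exact permutation test gave p = 0.2. Without RD replicate 2 the log2 fold change was 1.80 with an adjusted p of 0.0486, without RD replicate 1 it was 0.81 with 0.419, and without HCD replicate 1 it was 0.89 with 0.311. Ppp1r3b was at 267, 264 and 187 CPM with RD and 159, 190 and 307 with HCD, with both extremes in HCD livers. Its log2 fold change was −0.13 (SE 0.26, interval −0.72 to 0.46, adjusted p = 0.811, edgeR), and it ran from −0.47 without HCD replicate 3 to 0.05 without HCD replicate 1.

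**Figure D2:**
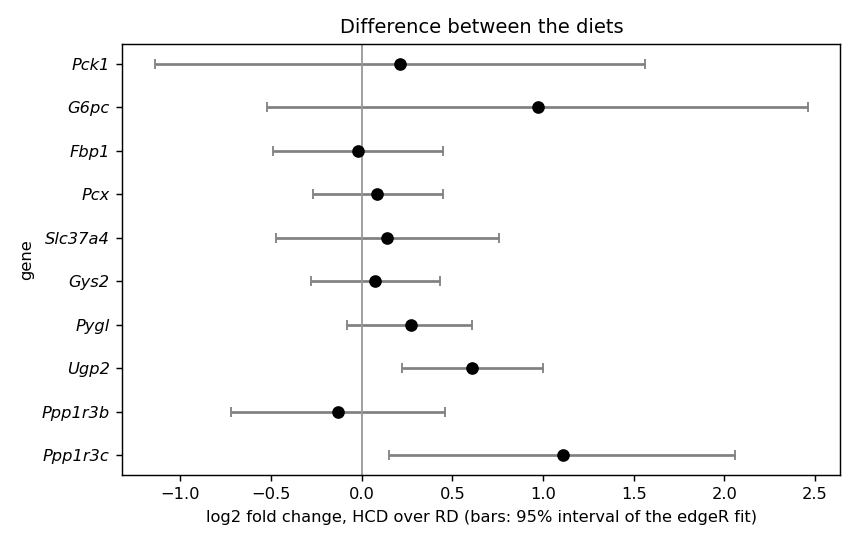
Log2 fold change of HCD over RD for each gene (points) with its 95% interval from the edgeR fit (bars, not adjusted for the number of genes). The intervals of Pck1 and G6pc are the widest, from −1.14 to 1.56 and from −0.52 to 2.46, and those of Ugp2 and Ppp1r3c lie above 0 before adjustment.

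Over the 10 members, 8 log2 fold changes were above 0 and 2 below, with a median of 0.18 beside 0.0074 over all genes tested. The sign changed in at least 1 of the fits without 1 liver for 6 of the 10 (Pck1, Fbp1, Slc37a4, Pcx, Gys2 and Ppp1r3b). Before adjustment, 2 of 10 members passed the threshold of 0.05 upward (Ugp2 and Ppp1r3c) and 0 downward, where 11.1% of all genes tested did so upward and 9.81% downward. The median of the members moved between 0.01 without HCD replicate 3 and 0.32 without HCD replicate 2.

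Per length, in the authors' FPKM (fragments per kilobase of gene scaled to library size), the members spanned a wide range of levels. Averaged over the 6 livers, the order was Pck1 at 896, Fbp1 at 692, G6pc at 246, Ugp2 at 159, Pcx at 149, Pygl at 111, Slc37a4 at 86.8, Gys2 at 60, Ppp1r3b at 54.2 and Ppp1r3c at 50.7 FPKM. Neighbours in this order overlapped across the 6 livers, except that Fbp1, at 547 to 862 FPKM, stayed above G6pc, at 25.5 to 429. Pck1 was above Fbp1 in 5 of 6 livers. The order of Ugp2 and Pcx differed by diet, with means of 125 and 143 FPKM with RD, where Ugp2 was above Pcx in 1 of 3 livers, and 194 and 155 with HCD, where it was above in 3 of 3. Of the 2 phosphatase subunits, Ppp1r3b was above Ppp1r3c in 3 of 3 RD livers and in 1 of 3 HCD livers, and their ranges overlapped within each diet. In FPKM, Ppp1r3c was at 17.3, 55.5 and 22.3 with RD and 90.6, 66.5 and 52.2 with HCD, and Ppp1r3b at 62.6, 60.9 and 45 with RD and 38.5, 44.3 and 74.1 with HCD.

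Livers of the same diet were far apart for 3 members. Among RD livers the SD of log2(CPM + 0.5) was 1.83 for G6pc, 1.44 for Pck1 and 0.90 for Ppp1r3c, which placed them at the percentiles 99.9, 99.7 and 98.5 of all genes tested. The highest RD liver held 10.3 times the lowest for G6pc, 7.24 times for Pck1 and 3.26 times for Ppp1r3c. Among HCD livers the same genes had SDs of 0.35, 0.53 and 0.39, at the percentiles 61.3, 79.6 and 66.8. Ugp2 went the other way, with an SD of 0.03 among RD livers (percentile 1.53) and 0.30 among HCD livers (percentile 52.5). With 3 livers per diet these SDs are imprecise, and no test of the difference in spread was made. The median SD over the members was 0.28 with RD and 0.32 with HCD, beside 0.20 and 0.29 over all genes tested.

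**Figure D3:**
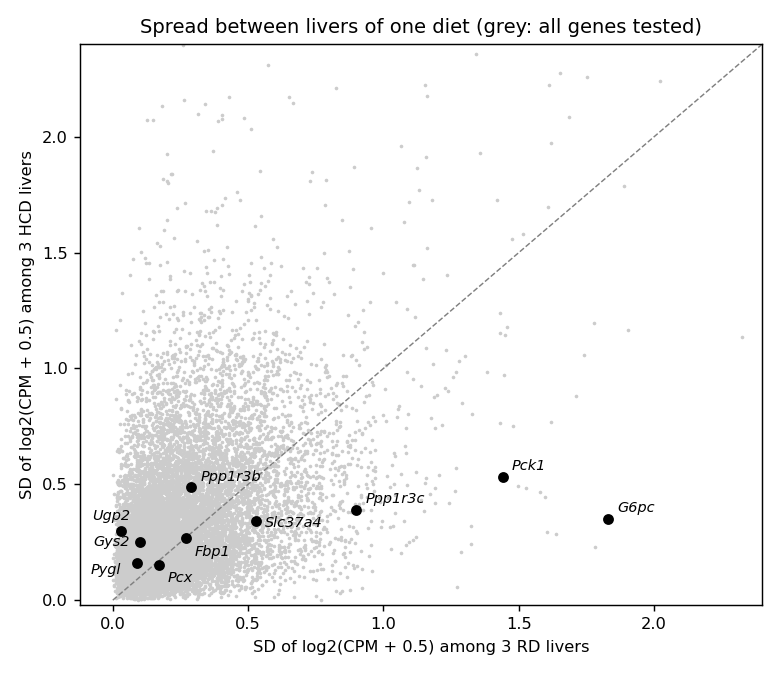
SD of log2(CPM + 0.5) among the 3 RD livers (horizontal axis) against that among the 3 HCD livers (vertical axis) for every gene tested (grey) and for the 10 genes (black), with a dashed line at equality; 39 genes lie outside the axes, which end at 2.4. G6pc, Pck1 and Ppp1r3c lie far to the right, at 1.83, 1.44 and 0.90, and Ugp2 lies at the left edge, at 0.03.

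RD replicate 1 was the low liver for these 3 genes. Measured from the mean of the 6 livers on the log2 scale, it was at −2.85 for G6pc, −1.80 for Pck1 and −1.30 for Ppp1r3c, and at 0.31 for Slc37a4 and 0.26 for Ppp1r3b. It was the lowest of the 6 livers for 4 of 10 members (G6pc, Pck1, Ppp1r3c and Ugp2), beside 13.8% of all genes tested. The same liver was the lowest for 4 of 5 Kupffer cell markers and 2 of 4 hepatocyte markers, and their part in its low values was not tested. RD replicate 3 was high for Pck1, at 1.06, and low for Ppp1r3c, at −0.98, and Slc37a4, at −0.68, so that the low and high livers were not the same for all members. Taking the median over the members, the 6 livers lay between −0.23 (RD replicate 3) and 0.36 (HCD replicate 3).

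The genes whose levels followed Pck1 and G6pc most closely over the 6 livers were ranked by Pearson's r of log2 CPM among the 9107 genes that averaged at least 5 CPM, as a description over 6 libraries of both diets, which differ in depth. For Pck1 they were Rpe (0.970), Cul7 (0.951) and Zfp950 (0.951), and for G6pc they included Polr1d (0.982) and Nsmce3 (0.966). The likeness is not of size: Rpe ranged from 21.8 to 28.7 CPM where Pck1 ranged from 503 to 3640, and Polr1d from 28.4 to 38.7 CPM where G6pc ranged from 42.4 to 687. RD replicate 1, the lowest liver for Pck1 and G6pc, was also the lowest for each of these genes. Polr1d, for example, was at 28.4 CPM there and at 36 to 38.7 in the other livers. Over 0.9 there were 29 genes for Pck1 and 31 for G6pc. How many unrelated genes would pass 0.9 over 6 livers was not tested, so these counts are not a result about shared control.

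The rest of the pathway was followed with 5 lists of genes, 101 of them tested, of which 3 passed the adjusted threshold, a share near the 3.27% of all genes tested, so the count is not a result about the lists. Other gluconeogenic and shared glycolytic enzymes, with their carriers, had 1 of 25 higher and 0 lower, with a median log2 fold change of 0.12. That gene was Mpc1, a subunit of the mitochondrial carrier that brings pyruvate to Pcx. Mpc1 rose from 23.1, 21.6 and 21.7 CPM with RD to 67.9, 37.2 and 64.8 with HCD, higher in 3 of 3 HCD livers. Its log2 fold change was 1.36 (SE 0.22, adjusted p = 0.0228, edgeR). Its partner subunit Mpc2, named after its values were seen, was at 114, 118 and 126 CPM with RD and 279, 181 and 181 with HCD. Its log2 fold change was 0.84 with an adjusted p of 0.0540 by edgeR, and 0.60 without HCD replicate 1. The adjusted p was 0.0270 by edgeR without the filter on low counts and 0.00123 by DESeq2. DESeq2 called 4 of the 25, Mpc1 and Mpc2 among them, beside 8.54% of all genes it tested. The call of Mpc1 was lost without RD replicate 1, 2 or 3 (adjusted p of 0.112, 0.119 and 0.0695), without HCD replicate 3 (0.0772), with the replicate block (0.0504) and with limma on log2 FPKM plus 0.1 or plus 1 (0.0626 and 0.0902). A near-identical copy of Mpc1, Mpc1-ps, matches 330 bases at 99.7% identity in GENCODE M21, so that its reads may be split. In the same list Gapdh, with 44 such matches, in which Gm4691 is counted under each of its transcript types, was at 0.896 to 4.53 CPM. That level says little about Gapdh.

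Other glycogen genes, 23 tested of 27 named, had none called in either direction by edgeR, and a median log2 fold change of −0.0068. Before adjustment, 1 was called upward and 2 downward at the same threshold, beside 11.1% and 9.81% of all genes tested. DESeq2 called 1 of them, Stbd1, a glycogen-binding protein named after its values were seen, at 63.6, 79.6 and 81.1 CPM with RD and 26.3, 49.6 and 55.1 with HCD (log2 fold change −0.78, adjusted p = 0.138 by edgeR). Without HCD replicate 1 its log2 fold change was −0.52. The opposing glycolytic enzymes had 0 of 13 called, with 1 upward and 1 downward before adjustment and a median of −0.0044. DESeq2 called 2 of them, beside 8.54% of all genes it tested: Khk, ketohexokinase, was higher and Pfkfb1, a regulator of phosphofructokinase, was lower, both named after their values were seen.

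Genes of glucagon, insulin and glucocorticoid control had 1 of 26 higher and 0 lower, beside the same 3.27%, with a median of −0.052. That gene was Nr0b2, which encodes SHP, a bile acid responsive repressor of liver transcription. Nr0b2 rose from 24.4, 44.7 and 37.5 CPM with RD to 89.2, 69.4 and 111 with HCD, with 3 of 3 HCD livers above the RD livers. Its log2 fold change was 1.34 (SE 0.25, adjusted p = 0.0303, edgeR), and the call held only without HCD replicate 2 among the 6 fits that left out 1 liver, the other adjusted p running from 0.0502 to 0.112. It also ended with the correction for gene length (0.0628), the replicate block (0.0657) and limma on log2 FPKM plus 0.1 or plus 1 (0.0727 and 0.0975). Cebpb, a transcription factor of the acute phase and of gluconeogenesis named after its values were seen, had a log2 fold change of 1.02 and an adjusted p of 0.110 by edgeR. The adjusted p was 0.0474 without the filter on low counts and 0.0212 without HCD replicate 1, both by edgeR, and 0.00937 by DESeq2. DESeq2 called 2 of the 26, beside 8.54% of all genes it tested, so the count is not a result about the list. The glucagon receptor Gcgr was at 274, 270 and 216 CPM with RD and 226, 231 and 269 with HCD (log2 fold change −0.067, adjusted p = 0.841, edgeR). Foxo1, the factor that insulin signalling holds out of the nucleus, was at 29.6, 24.3 and 31.4 CPM with RD and 34.3, 40.5 and 35.4 with HCD, without overlap (log2 fold change 0.37, adjusted p = 0.209, edgeR). Ppargc1a, a coactivator of fasting genes, was at 4.13, 3.56 and 8.77 CPM with RD and 8.74, 3.52 and 7.70 with HCD (log2 fold change 0.27, adjusted p = 0.768, edgeR).

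The fasting and glucocorticoid responsive genes, which share Got1 with the gluconeogenic list, had 0 of 15 higher and 1 lower by edgeR, beside 3.27% of all genes tested. Their median log2 fold change was 0.64, and their median SD was 0.58 with RD and 0.63 with HCD, above the members' 0.28 and 0.32. The direction of the calls depended on the fit: besides Asns, which was lower, DESeq2 called Per1, Tsc22d3 and Angptl4 higher (adjusted p of 0.000434, 0.00301 and 0.0198), where it called 8.54% of all genes it tested, and edgeR without HCD replicate 1 called Per1 and Cdkn1a higher (0.0297 and 0.00304) and Asns no longer. These 4 genes were named after their values were seen. RD replicate 1 was the lowest of the 6 livers for 6 of the 15, beside 13.8% of all genes tested. Igfbp1, an insulin-repressed secreted protein, was at 11.2, 62.4 and 156 CPM with RD and 347, 69.3 and 131 with HCD, with RD replicate 1 the lowest liver and HCD replicate 1 the highest, as for G6pc. Its log2 fold change was 1.25 (SE 0.84, adjusted p = 0.431, edgeR), and 0.38 without HCD replicate 1. The gene that fell was Asns, asparagine synthetase, which responds to amino acid shortage. Asns had 77, 19 and 385 counts with RD and 4, 3 and 0 with HCD, so that its fitted log2 fold change of −5.57 (SE 1.13, adjusted p = 0.0403, edgeR) rests on single counts and on the prior count of the fit. Its call held without RD replicate 2 (0.0486) and was lost without each of the other 5 livers, with adjusted p from 0.0821 to 0.118, and with the replicate block (0.0783) and limma on log2 FPKM plus 0.1 or plus 1 (0.107 and 0.266).

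**Figure D4:**
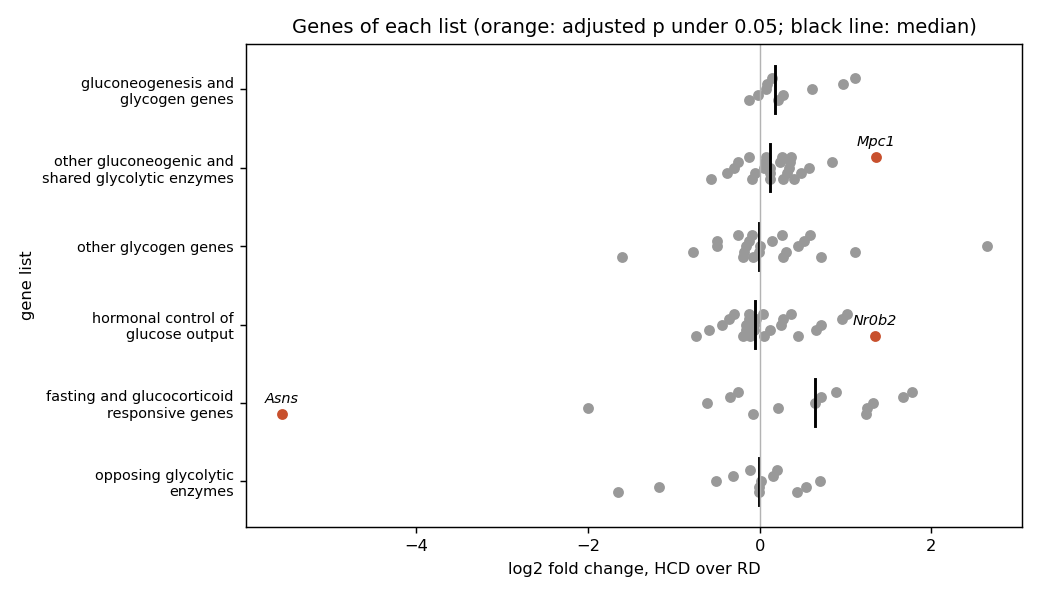
Log2 fold change of HCD over RD for each tested gene of the 10 members and of the 5 lists (points, orange where the adjusted p is under 0.05), with a black line at each list's median. Mpc1 and Nr0b2 lie at 1.36 and 1.34 and Asns at −5.57, and the medians run from −0.052 for hormonal control to 0.64 for the fasting and glucocorticoid genes.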

How the data were processed

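Liver RNA of 6 mice was sequenced, 1 library per liver. The authors deposited read counts per gene, whole numbers without normalization, and FPKM, scaled per gene length and library by the authors. The submitters' processing notes name STAR, HTSeq, DESeq2, edgeR and GRCm39, without their roles. The library kit, strand and annotation are not given in the sources used here. Diets and replicates came from the sample labels. The deposited fold changes and p-values, the authors' own comparison, were not used.

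Counts were fitted over all genes with edgeR 4.0.16 in R 4.3.3 (filterByExpr by diet, TMM, quasi-likelihood F test, no covariate, two-sided), and p-values were adjusted by the Benjamini-Hochberg method over all 13105 genes that passed the filter. Calls needed an adjusted p under 0.05. The script was tested on simulated data. Log2 values of single livers add 0.5 to CPM. The exact permutation tests went through every way of assigning 3 of the 6 livers. Intervals cover 95% and are not adjusted. Alternatives used DESeq2 1.42.0, limma 3.58.1 on log2 FPKM plus 1 or 0.1, other scaling factors and filters, a correction for gene length, a replicate block and leaving out each liver. Near-identical copies (at least 200 bases at 90% identity, minimap2 2.31-r1302) and exon overlaps came from GENCODE M21, where no member had such a copy, and promoters came from RefSeq GRCm38.p6. Figures were drawn with matplotlib 3.10.9 in Python 3.11.15.

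The members and lists were chosen with earlier results of these data known. Named were all members, each called gene of a list (up to 4 per direction), a fixed set that includes Foxo1, Ppargc1a, Gcgr and Igfbp1, and the 3 genes most like each of Pck1 and G6pc. Some genes under this rule are not reported here. The p-values measure the spread between these livers only.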

Additional observations from a re-analysis of the deposited data

How the results depend on the processing

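Of the 10 members, 0 passed the threshold in the edgeR fit. DESeq2 called 1 (Ugp2), the unadjusted p gave 2, and leaving out 1 liver gave 0 to 1 (Ugp2 without HCD replicate 2, Ppp1r3c without RD replicate 2). The members' median log2 fold change, 0.18, stayed above 0 in every alternative run. Over all genes the 428 calls became 1118 with DESeq2, 649 without the filter on low counts, 251 with the length correction, 199 and 128 with limma on log2 FPKM plus 0.1 and plus 1, 2739 at the unadjusted p, and 36 to 335 without 1 liver (36, 51 and 146 without RD replicate 1, 2 and 3, and 103 without HCD replicate 3). The 3 calls of the lists became 13 with DESeq2, 9 without the filter, 23 at the unadjusted p, 0 with limma under either pseudocount, and 0 to 4 without 1 liver. The cause of these shifts was not tested, and a fit without 1 liver changes both the number of livers and which livers are present. Same-numbered livers of the diets did not deviate together (r = −0.0838, 0.119 and −0.0298), so the numbers do not pair them, and a fit with the replicate block called 0 members, 0 list genes and 136 genes in all, with a members' median of 0.22. The length correction ended the call of Nr0b2 and brought in Mpc2 (adjusted p = 0.0409, edgeR). At 3 livers per diet, the intervals of Pck1 and G6pc cover both a lower and a higher level with HCD.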
